A study of Mus musculus with 48 samples.

Results

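The comparison described here asked what the Q140 allele changed in striatum when both groups carried the Msh3-/- genotype: 8 libraries labelled Het (Q140) KI X Msh3-/- were set against 8 labelled Msh3-/-, which is 16 of the 48 libraries of the series. Members were taken by their labelled genotype alone, with 4 females and 4 males in each group. Both groups were C57BL/6 mice aged 6 months and differed by label only in 1 copy of the Q140 knock-in. The other 4 groups were wild type (7 libraries), Q140 (8), Msh3+/- (9) and Q140 with Msh3+/- (8), all from striatum at the same age and on the same labelled strain. Each library was bulk messenger RNA from dissected striatum, read by stranded sequencing and deposited as counts per gene. The labels do not say that each library came from a separate animal, so p-values measure the spread between these libraries.

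Q140 mice carry an expanded CAG repeat in one copy of their own Huntingtin gene, Htt, and serve as a model of Huntington's disease. The striatum is made mostly of medium spiny neurons, GABAergic output cells of a direct pathway that expresses dopamine receptor Drd1 and an indirect pathway that expresses Drd2 and enkephalin, and loss of their identity transcripts is the best known expression change of the disease. MSH3 is a subunit of a mismatch repair complex that binds small DNA loops, and it is required for much of the somatic lengthening of CAG repeats in this tissue. Repeat length was not measured in the files used here. In bulk tissue, fewer cells of a type and less RNA per cell cannot be told apart.

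The 16 libraries held between 33673410 and 52631234 counts each. Msh3 itself ran from 111 to 131.5 CPM (counts per 1000000 counts of the library, scaled for library composition) in Msh3-/- libraries, with a median of 117.1, and from 118.3 to 135.5 with a median of 122.9 in Q140 Msh3-/- libraries. Wild-type libraries ran from 29.1 to 33.0 and Msh3+/- libraries from 68.2 to 85.4, so the counts over the gene rose with each labelled mutant copy and do not show loss of the transcript. The labels do not say which part of Msh3 was altered, and groups are called by their labels throughout. Between the 2 groups Msh3 had a log2 fold change of 0.06 ± 0.037 (SE) and an adjusted p of 0.789 in edgeR's quasi-likelihood test. Htt counts ran from 200.7 to 215.5 CPM in Msh3-/- and from 191.3 to 234.2 CPM in Q140 Msh3-/-, with an adjusted p of 0.855, and a count over the gene does not separate its alleles. The 33 markers shared by medium spiny neurons summed to 27490 to 29350 CPM in Msh3-/- libraries and 23910 to 27040 CPM in Q140 Msh3-/- libraries, against 227 to 323 CPM for 15 choroid plexus and ependymal genes over both groups. Library M4 of the Q140 Msh3-/- group (the 4th male) lay at 44.9 on the second principal component of the 16 libraries while the other 15 lay between -16.1 and 7.93.

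On the Msh3-/- background 15 of 19975 genes (0.0751%) differed between libraries labelled with and without Q140 at an adjusted p under 0.05. Of these, 10 rose and 5 fell with Q140 (0.0501% and 0.025% of genes tested). The count was 5 (4 higher, 1 lower) without 3 Q140 Msh3-/- females, F1, F3 and F4, in which 3 genes near Htt stood close to the Msh3-/- level, and Lrrn3 and Gm2420 were the 2 of the 15 among them. That subset was chosen after seeing the data and leaves F2 as the only Q140 Msh3-/- female. In the summary by library below, F1, F3 and F4 had the lowest levels of that group for genes that fell past 2-fold in Q140 against wild type. F2 had the highest. Over all genes that fell, M4 was lowest at -0.095. F1 stood at -0.077, F3 at -0.082 and F4 at -0.030 in that longer list. Of the 15 genes, those that fell were Penk, Ankrd35, Ddit4l, Pde1b and Papss2. Those that rose were Lrrn3, Htr2c, Ildr2, Gm2420, Vill, Kcng1, Lrrtm4, Bcl11a, C130071C03Rik and Tmc3. Changes were small: apart from the low-count pseudogene Gm2420, they ran from -0.61 for Ddit4l to 0.67 for Tmc3 on the log2 scale. Before adjustment, 1342 genes (6.72%) had a p under 0.05, of which 656 were higher (3.28%) and 686 lower (3.43%). The median log2 fold change over all genes was 0.002. In 7 of the 15 genes the CPM ranges of the 2 groups did not overlap, as in 13 of all genes tested (0.0651%).

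Penk encodes proenkephalin, the opioid peptide precursor of indirect pathway neurons, and lies at chr4:4133531-4138819 on the minus strand of GRCm38. Its level ran from 1863 to 2246 CPM (median 1949) in the 8 Msh3-/- libraries and from 1318 to 1679 CPM (median 1485) in the 8 Q140 Msh3-/- libraries. Every Q140 Msh3-/- library lay below the lowest Msh3-/- library. The log2 fold change was -0.41 ± 0.075 (SE), with an adjusted p of 0.00686 in edgeR's quasi-likelihood test. Ankrd35, an ankyrin repeat gene at chr3:96670131-96691032 on the plus strand, ran from 14.6 to 17.6 CPM (median 16.5) without Q140 and from 9.45 to 14.6 CPM (median 12.6) with it. These ranges were separate too, though by a narrow gap of 14.63 against 14.62 CPM, and the log2 fold change was -0.38 ± 0.070 with an adjusted p of 0.00686. Ddit4l, a stress-induced inhibitor of mTOR signalling at chr3:137621612-137628333, ran from 31.9 to 41.6 CPM (median 36.9) and from 15.6 to 29.6 CPM (median 24.2). All 8 Q140 Msh3-/- libraries were lower than all 8 Msh3-/- libraries, and the fall of -0.61 ± 0.13 (adjusted p 0.0393) was the steepest of the 5, but Ddit4l passed in only 3 of the 16 fits that each left out a library. Pde1b, a calcium- and calmodulin-dependent phosphodiesterase abundant in medium spiny neurons, ran from 1540 to 1647 CPM (median 1581) and from 1210 to 1449 CPM (median 1381). Its ranges did not overlap, and its log2 fold change was -0.22 ± 0.047 with an adjusted p of 0.0393, which held in 3 of those 16 fits. Papss2, which makes the sulfate donor PAPS, ran from 27.1 to 31.9 CPM and from 23.7 to 28.3 CPM, with 5 of 8 Q140 Msh3-/- libraries below the Msh3-/- range and a log2 fold change of -0.21 ± 0.044 (adjusted p 0.0393).

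Lrrn3 had the smallest p of all genes tested. It encodes a leucine-rich repeat membrane protein of neurons and lies at chr12:41451668-41486431 on the minus strand. Its level ran from 40.1 to 46.1 CPM (median 43.5) in Msh3-/- libraries and from 49.4 to 59.6 CPM (median 54.3) in Q140 Msh3-/- libraries. The ranges did not overlap, and the log2 fold change was 0.33 ± 0.053 with an adjusted p of 0.00147 in edgeR's quasi-likelihood test. Htr2c, the serotonin 2C receptor at chrX:146962513-147197277, ran from 53.4 to 64.2 CPM (median 57.7) and from 60.1 to 84.9 CPM (median 78.4). One Q140 Msh3-/- library fell inside the Msh3-/- range and 7 lay above it, with a log2 fold change of 0.40 ± 0.072 (adjusted p 0.00686). Ildr2, an immunoglobulin-domain receptor gene at chr1:166254139-166316823, ran from 44.01 to 51.5 CPM (median 48.1) and from 50.2 to 65.0 CPM (median 58.1). Again 7 of 8 libraries lay above the Msh3-/- range, and the log2 fold change was 0.29 ± 0.053 (adjusted p 0.00686).

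Among the other genes that rose were a potassium channel subunit and a member of a channel-like family. Kcng1, a modulatory subunit of voltage-gated potassium channels at chr2:168260117-168281736, ran from 47.0 to 55.1 CPM (median 51.3) in Msh3-/- and from 57.3 to 78.5 CPM (median 63.6) in Q140 Msh3-/-, with no overlap and a log2 fold change of 0.36 ± 0.071 (adjusted p 0.0189). Tmc3, of the transmembrane channel-like family, ran from 0.921 to 1.45 CPM and from 1.52 to 2.65 CPM, again without overlap, with a log2 fold change of 0.67 ± 0.15 (adjusted p 0.0455). Vill, a villin-like actin-binding gene, ran from 3.38 to 4.89 CPM and from 4.41 to 6.97 CPM, where 1 library overlapped, with a log2 fold change of 0.48 ± 0.093 (adjusted p 0.0123). Lrrtm4, a postsynaptic organiser of excitatory synapses, and Bcl11a, a zinc finger transcription factor, changed least among named protein genes that rose. Lrrtm4 ran from 37.9 to 44.5 CPM and from 43.6 to 52.3 CPM (log2 fold change 0.21 ± 0.043, adjusted p 0.022). Bcl11a ran from 74.6 to 84.3 CPM and from 80.6 to 89.8 CPM (log2 fold change 0.15 ± 0.032, adjusted p 0.0393). For both, 7 of 8 Q140 Msh3-/- libraries lay above every Msh3-/- library.

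Gm2420 and C130071C03Rik passed the test but fall outside the rule for named genes, since they carry clone names, and are described after their values were seen. C130071C03Rik is a long noncoding RNA gene at chr13:83721381-83884194 with a log2 fold change of 0.15 ± 0.032 (adjusted p 0.0393). Gm2420 is a transcribed pseudogene at chr5:32720330-32736194, 2.03 Mb from Htt, and reads from near-identical copies may be split in its count. It ran from 0 to 0.136 CPM in Msh3-/- libraries. In Q140 Msh3-/- libraries it stood at 0, 0.0606 and 0 CPM in females F1, F3 and F4, and between 0.546 and 0.782 CPM in the other 5. Its log2 fold change of 3.08 ± 0.59 (adjusted p 0.0123) therefore rests on 5 of 8 libraries, whereas all 8 libraries with Q140 and no Msh3 mutation lay between 0.739 and 1.06 CPM. Of the 358 genes tested within 20 Mb of Htt, Gm2420 was the only 1 that passed, and 27 (7.54%) had an unadjusted p under 0.05 against 6.72% of all genes. In library M2 of the Q140 Msh3+/- group Gm2420 stood at 0.0616 CPM. Whether these low values bear on the labels of the libraries was not tested, and the labels were kept. Of the Q140 Msh3-/- libraries, F1, F3 and F4 had the lowest levels of genes that fell past 2-fold in Q140 against wild type (summary by library below). Over all genes that fell, M4 was lowest at -0.095 and F4 stood at -0.030.

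**Figure D1:**
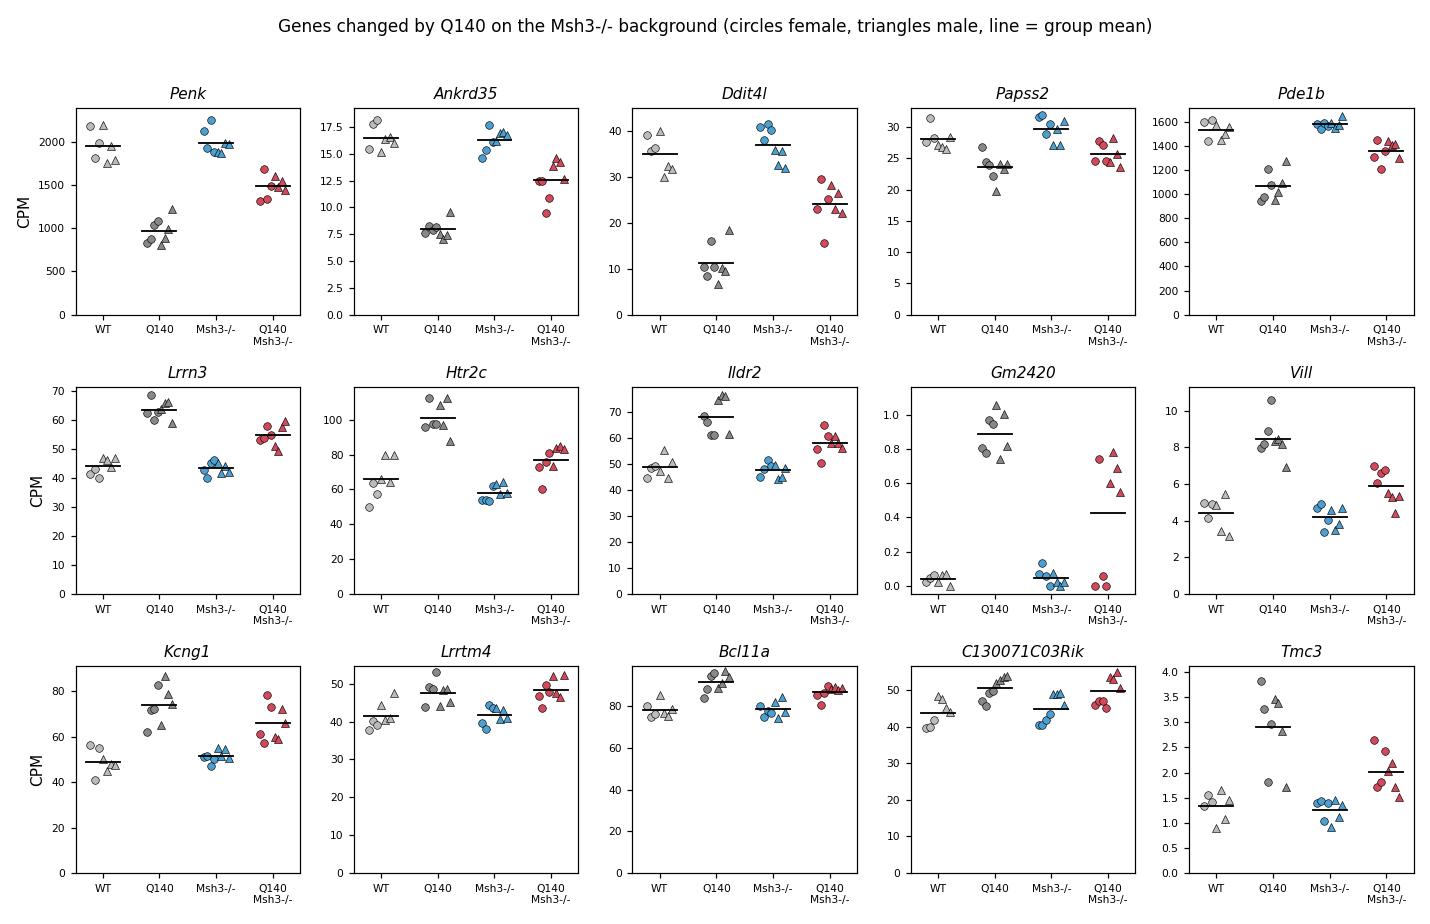
Level in CPM (y axis, linear, a panel for each gene) of the 15 genes called on the Msh3-/- background, in wild-type, Q140, Msh3-/- and Q140 Msh3-/- libraries (x axis). Circles are female and triangles male libraries and the line is the group mean. In the top row, the 8 Q140 Msh3-/- libraries of Penk, from 1318 to 1679 CPM, sit between the Q140 libraries and the Msh3-/- libraries.

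The windows before the start sites of these genes were read from RefSeq (GRCm38.p6), which held an entry for 11 of the 15 genes and none for Penk, Lrrn3, Kcng1 and Gm2420. The 250 bases upstream were searched on both strands for 5 motifs bound by factors of neuronal activity or by widespread activators. Where a gene had several windows, the one furthest upstream was used. The shares are over all windows of all genes, expressed or not, and so are not matched to the 11. The cAMP response element TGACGTCA was in 0 of the 11 windows and in 1.55% of all 32851 windows. Its short form TGACG, which the full element contains, was in 1 (C130071C03Rik) against 17.8%. The AP-1 motif TGANTCA, with any base in the middle, was in 1 (Htr2c) against 6.75%, the EGR motif GCGNGGGCG in 3 (Ankrd35, Pde1b and Ildr2) against 4.7%, and the SP/KLF motif GGGCGG, which can overlap an EGR match, in 7 against 32.7%. The 4 windows with an EGR or AP-1 match are shown because they include genes of both directions, Ankrd35 and Pde1b that fell and Ildr2 and Htr2c that rose. Capitals mark the EGR match in the first 3 and the AP-1 match in the last, on whichever strand it was found. All are on the plus strand, 5′ to 3′, at chr3:96669881-96670130, chr15:103502784-103503033, chr1:166253889-166254138 and chrX:146962263-146962512 in that order.
Ankrd35: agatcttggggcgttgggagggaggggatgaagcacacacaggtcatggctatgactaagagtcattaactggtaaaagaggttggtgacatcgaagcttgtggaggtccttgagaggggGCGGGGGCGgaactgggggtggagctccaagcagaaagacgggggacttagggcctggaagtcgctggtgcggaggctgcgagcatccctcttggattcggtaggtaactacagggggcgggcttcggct
Pde1b: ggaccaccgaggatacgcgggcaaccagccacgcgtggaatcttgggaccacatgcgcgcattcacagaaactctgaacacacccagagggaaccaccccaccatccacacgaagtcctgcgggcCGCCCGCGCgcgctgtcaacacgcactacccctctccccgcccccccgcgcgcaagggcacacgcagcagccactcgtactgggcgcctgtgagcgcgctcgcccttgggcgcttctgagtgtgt
Ildr2: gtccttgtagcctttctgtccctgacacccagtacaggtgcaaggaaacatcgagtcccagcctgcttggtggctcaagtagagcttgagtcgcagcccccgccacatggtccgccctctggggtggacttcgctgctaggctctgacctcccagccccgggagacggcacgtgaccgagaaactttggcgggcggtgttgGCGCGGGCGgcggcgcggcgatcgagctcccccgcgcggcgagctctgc
Htr2c: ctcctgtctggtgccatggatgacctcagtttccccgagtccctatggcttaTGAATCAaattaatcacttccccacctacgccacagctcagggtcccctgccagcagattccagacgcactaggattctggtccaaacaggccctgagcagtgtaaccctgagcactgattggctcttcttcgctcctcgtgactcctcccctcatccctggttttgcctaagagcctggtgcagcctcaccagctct
Guanine and cytosine made up 58.8% of the window of Ankrd35, 67.2% of Pde1b, 66.8% of Ildr2 and 55.6% of Htr2c. A match is a stretch of letters and not a measured binding site.

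The Q140 effect on this background was then set beside the effect of Q140 without an Msh3 mutation, from Q140 and wild-type libraries that the first comparison does not use. All 15 genes also passed in Q140 against wild type in the same direction, which is 100% of these 15 and 0.378% of the 3969 genes called there (19.9% of genes tested). Penk fell by 1.02 on the log2 scale in that comparison against 0.41 here, Ankrd35 fell by 1.05 against 0.38, Ddit4l fell by 1.64 against 0.61, and Pde1b fell by 0.52 against 0.22. The difference between the 2 backgrounds passed for these 4 genes. It was 0.61 (95% confidence interval 0.39 to 0.82, adjusted p 0.00103) for Penk and 0.67 (0.47 to 0.88, adjusted p 0.000218) for Ankrd35 in edgeR's quasi-likelihood test. It was 1.03 (0.64 to 1.41, adjusted p 0.00189) for Ddit4l and 0.31 (0.17 to 0.44, adjusted p 0.00689) for Pde1b, which missed the threshold with plate row as a covariate (adjusted p 0.0971). The libraries show the same order: Penk ran from 800.4 to 1218 CPM in Q140 libraries, below all 8 Q140 Msh3-/- libraries, and Ddit4l ran from 6.63 to 18.4 CPM there, which overlaps the lowest Q140 Msh3-/- library at 15.6 CPM.

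None of the 10 genes that rose passed the test of that difference. Lrrn3 rose by 0.53 in Q140 against wild type and by 0.33 here, with a difference of -0.20 (95% interval -0.35 to -0.05, adjusted p 0.164). Htr2c rose by 0.64 and 0.40 (difference -0.24, interval -0.45 to -0.03, adjusted p 0.243), Ildr2 by 0.49 and 0.29 (interval -0.35 to -0.05, adjusted p 0.154), and Vill by 0.93 and 0.48 (interval -0.71 to -0.18, adjusted p 0.0523). For these 4 genes the interval of each single gene excluded 0, while the p adjusted over all genes missed the threshold. The same held for Kcng1 (difference -0.24, interval -0.44 to -0.03, adjusted p 0.237 in edgeR). It held for Tmc3 too (-0.44, interval -0.86 to -0.03, adjusted p 0.286). The interval of Bcl11a ran from -0.17 to 0.01. Without Q140 Msh3-/- F1, F3 and F4 the difference passed for Vill (-0.56, adjusted p 0.0209) and Ildr2 (-0.27, adjusted p 0.0448). For Lrrtm4, which rose by 0.20 in Q140 against wild type and 0.21 here, the interval of the difference ran from -0.12 to 0.13. For Papss2, which fell by 0.26 and 0.21, it ran from -0.08 to 0.18.

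**Figure D2:**
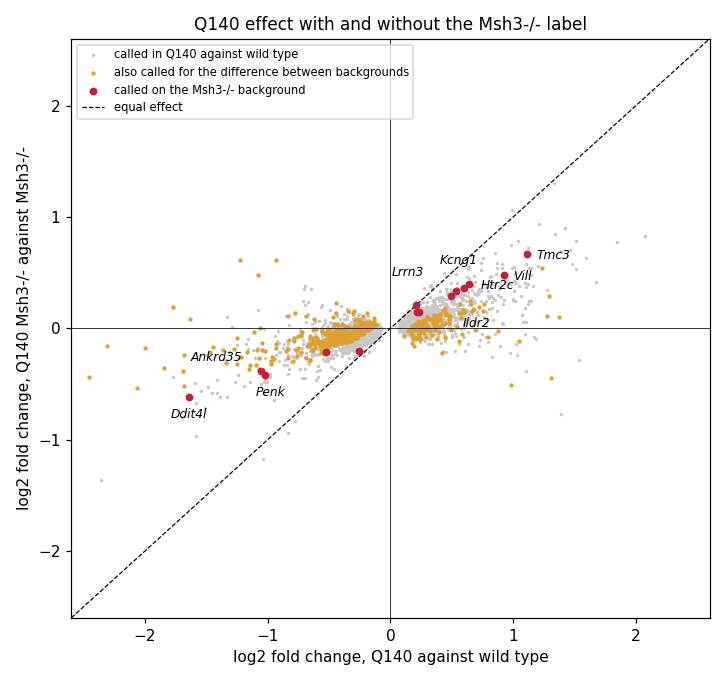
Log2 fold change on the Msh3-/- background (y axis) against that of Q140 over wild type (x axis) for the 3969 genes called in Q140 against wild type. Orange points passed the test of the difference, red points were called on the Msh3-/- background, and 6 points lie outside the axes. The dashed line marks equal effects. Of the genes on the right 1555 of 1926 lie above 0, and of those on the left 1683 of 2043 lie below it, with Ddit4l at -1.64 and -0.61.

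Over all genes, 478 (2.39%) passed the test of the difference between the backgrounds, 334 higher (1.67%) and 144 lower (0.721%). Of these, 476 were among the genes called in Q140 against wild type, an effect that is itself subtracted in the difference. The count was 64 (39 higher, 25 lower) with plate row as a covariate. It was 262 without Q140 F1, 276 without Q140 M1, 286 without Q140 Msh3-/- F2, 302 without wild-type M4 and 935 without Q140 M4. The steepest differences by the naming rule were in genes of low level. Mafa, a basic leucine zipper transcription factor, fell by 2.001 in Q140 against wild type and had a log2 fold change of -0.18 here (difference 1.83 ± 0.27, adjusted p 0.000218), with Msh3-/- libraries from 1.14 to 1.79 CPM and Q140 Msh3-/- libraries from 0.638 to 1.81 CPM. Fgf3, a fibroblast growth factor, fell by 1.44 and stood at -0.17 here (difference 1.27 ± 0.20, adjusted p 0.000218). On the other side, Sfmbt2, a Polycomb-group gene, rose by 1.27 in Q140 against wild type and stood at 0.11 here (difference -1.16 ± 0.21, adjusted p 0.00103, or 0.0505 with plate row as a covariate). Its Q140 libraries ran from 4.04 to 11.2 CPM, while its Msh3-/- libraries (2.11 to 3.59 CPM) and Q140 Msh3-/- libraries (2.80 to 3.85 CPM) overlapped each other and lay below the lowest Q140 library. Cbx8, a subunit of Polycomb repressive complex 1, stood at -0.02 here after a rise of 0.69 (difference -0.71 ± 0.12, adjusted p 0.000731). Scaling by library totals alone turned the sign of its value here to 0.002 and changed the split of the difference to 254 higher and 775 lower of 1029 genes, with a shift of the median over all genes from -0.008 to -0.071.

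Against the Msh3+/- background no gene passed the test of the difference. That count was 0 in edgeR, with 1220 genes at an unadjusted p under 0.05 and a smallest adjusted p of 0.756, and 0 in DESeq2, with 1235. Penk fell by 0.63 on the log2 scale on the Msh3+/- background, Ankrd35 fell by 0.71 and Ddit4l fell by 0.78, each between its values on the other 2 backgrounds. Lrrn3 rose there by 0.38 and Htr2c by 0.45, which also lie between. This held for 11 of the 15 genes and not for 4: Papss2 (-0.12), Bcl11a (0.12), Lrrtm4 (0.15) and C130071C03Rik (0.13) lay nearer 0 on the Msh3+/- background than on either of the others.

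Genes called in Q140 against wild type were followed as 2 lists in the 16 libraries of the Msh3-/- background. Of 1926 genes that rose there (9.64% of genes tested), 1555 (80.7%) had a value above 0 here and 10 passed, with a median log2 fold change of 0.05 here against 0.21 there. Of 2043 that fell there (10.2%), 1683 (82.4%) had a value below 0 and 5 passed, with a median of -0.05 here against -0.24 there. The median over all genes tested here was 0.002. Among genes past 2-fold, 60 that rose had a median of 0.40 against 1.14, and 80 that fell had a median of -0.33 against -1.25. On the Msh3+/- background the same 2 sets past 2-fold had medians of 0.42 and -0.68. Across all 19975 genes the 2 Q140 effects had a Pearson correlation of 0.31 and a Spearman correlation of 0.35, and 0.63 and 0.70 across the 3969 called genes. Genes are not independent replicates, and both effects come from 1 fit without a shared library.

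Within single libraries, each list was summarised as its median log2 CPM relative to the Msh3-/- mean. The list that rose ran from -0.025 to 0.036 (median 0.002) in Msh3-/- libraries and from 0.015 to 0.082 (median 0.052) in Q140 Msh3-/- libraries, so the groups overlapped. The list that fell ran from -0.023 to 0.024 (median -0.001) and from -0.095 to -0.002 (median -0.042), and these ranges overlapped as well. For genes past 2-fold, the list that fell ran from -0.054 to 0.15 in Msh3-/- and from -0.73 to -0.0004 in Q140 Msh3-/-. Female F2 of the Q140 Msh3-/- group gave the value nearest to the Msh3-/- libraries in all 4 summaries (0.015 and -0.002 for the whole lists, -0.050 and -0.0004 past 2-fold).

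**Figure D3:**
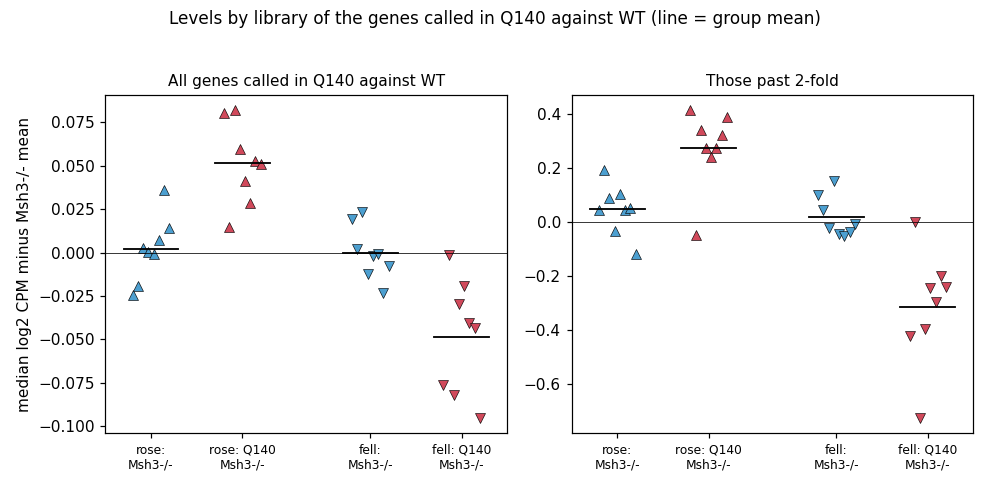
Median log2 CPM relative to the Msh3-/- mean (y axis) of the genes that rose or fell in Q140 against wild type, by library, for all called genes (left) and those past 2-fold (right). Points are the 8 Msh3-/- and 8 Q140 Msh3-/- libraries and lines are group means. Past 2-fold, 7 of the 8 Q140 Msh3-/- libraries stood at 0.24 or higher for genes that rose and -0.20 or lower for genes that fell, with F2 apart.

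Markers of medium spiny neurons were read as 3 lists. Of 33 markers shared by both pathways, 32 had values below 0 on the Msh3-/- background, 1 (Pde1b) passed against 0.0751% of all genes, 11 were lower at an unadjusted p under 0.05 against 3.43% of all genes, and the median was -0.11 against 0.002. In Q140 against wild type 31 of the 33 fell (10.2% of all genes did), with a median of -0.42, and for 19 the difference passed (2.39% of all genes). Ppp1r1b, which encodes the dopamine-regulated phosphatase inhibitor DARPP-32, had 2182 ± 137 CPM (SD, n = 8) in Msh3-/- and 1869 ± 123 CPM in Q140 Msh3-/-, with a log2 fold change of -0.22 and an adjusted p of 0.138 in edgeR. Scn4b, a sodium channel beta subunit, stood at -0.28 here (adjusted p 0.282) after a fall of 0.94 against wild type, and its difference passed (adjusted p 0.000911). Pde10a, a phosphodiesterase enriched in striatum, stood at -0.25 here (adjusted p 0.302) after a fall of 0.76. Adcy5, the striatal adenylyl cyclase, stood at -0.19 (adjusted p 0.291) after a fall of 0.64.

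Of 9 tested markers of the indirect pathway, Penk passed (0.0751% of all genes did) and the median was -0.10. At an unadjusted p under 0.05, 4 of the 9 were lower (3.43% of all genes were). In Q140 against wild type 7 fell (10.2% of all genes did), with a median of -0.50. The dopamine receptor Drd2 stood at 296.1 ± 15.8 and 258.7 ± 16.7 CPM (log2 fold change -0.20, adjusted p 0.46 in edgeR), and the adenosine receptor Adora2a at 398.8 ± 34.2 and 326.4 ± 30.7 CPM (-0.29, adjusted p 0.177). Of 10 markers of the direct pathway none passed, 6 lay above 0, and the median was 0.03. At an unadjusted p under 0.05, 1 was higher and 2 were lower, against 3.28% and 3.43% of all genes. The 1 that was higher was Tac1, the precursor of substance P, at 0.11 (unadjusted p 0.0447, adjusted p 0.732 in edgeR). In Q140 against wild type 3 of the 10 rose (Tac1, Isl1 and Eya1) and 2 fell, with a median of -0.01. Of all genes 9.64% rose and 10.2% fell there. The dopamine receptor Drd1 ran from 305.8 to 334.3 CPM in Msh3-/- and from 261.4 to 312.4 CPM in Q140 Msh3-/-, with 6 of 8 libraries below the Msh3-/- range, a log2 fold change of -0.13 and an adjusted p of 0.60. The fall of Drd1 in Q140 against wild type was 0.57, and the difference of 0.44 passed (adjusted p 0.000306). Chrm4, the muscarinic M4 receptor, stood at -0.14 (adjusted p 0.652) after a fall of 0.55, with a difference of 0.42 (adjusted p 0.00285).

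Other neuronal lists held no called gene apart from those above. Of 26 activity-regulated genes, 21 lay below 0, with a median of -0.18, and 4 were lower at an unadjusted p under 0.05 (3.43% of all genes were). In Q140 against wild type 11 of them fell (10.2% of all genes did). Egr3, a zinc finger factor of recent activity, stood at -0.12 here against -0.63 there and passed the difference test (adjusted p 0.0295). The difference passed for 2 of the 26 (2.39% of all genes). Jun and Dusp1 had the smallest p of the list here. Jun stood at -0.25 here and -0.27 in Q140 against wild type (difference 0.02, adjusted p 0.969 in edgeR). Dusp1 stood at -0.47 and -0.32 (difference -0.15, adjusted p 0.843). Of 22 beta protocadherins, which are adhesion proteins of neuronal surfaces encoded in tandem, 19 lay above 0, 8 were higher at an unadjusted p under 0.05 (3.28% of all genes were) and the median was 0.12, while 12 rose in Q140 against wild type (9.64% of all genes did). Pcdhb19 had the smallest p of them here (0.28 ± 0.073, adjusted p 0.197), and reads shared by these similar genes may be split among them. None of 48 potassium channel genes, 33 calcium channel and pump genes, 23 glutamate receptor genes or 16 GABA receptor genes passed, with medians between -0.04 and -0.03, and the potassium list does not hold Kcng1, which passed. Kcnab1, a potassium channel beta subunit, ran from 486.6 to 516.7 CPM and from 398.9 to 507.4 CPM, with a log2 fold change of -0.15 (adjusted p 0.53) and a passed difference of 0.31 from its effect without an Msh3 mutation (adjusted p 0.0194). Of 24 mismatch and repeat repair genes none passed, 18 lay above 0 and the median was 0.04. Of 32 Polycomb genes and 22 developmental factors none passed here, with medians of 0.007 and -0.06. Of 28 cyclic nucleotide genes Pde1b passed, and of 22 p53 and DNA damage genes Ddit4l passed, where 0.0751% of all genes did. None of 21 neurotrophin and growth factor genes, 24 heat shock, 24 cholesterol synthesis, 35 nuclear and 13 mitochondrial respiratory chain or 26 interferon response genes passed.

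**Figure D4:**
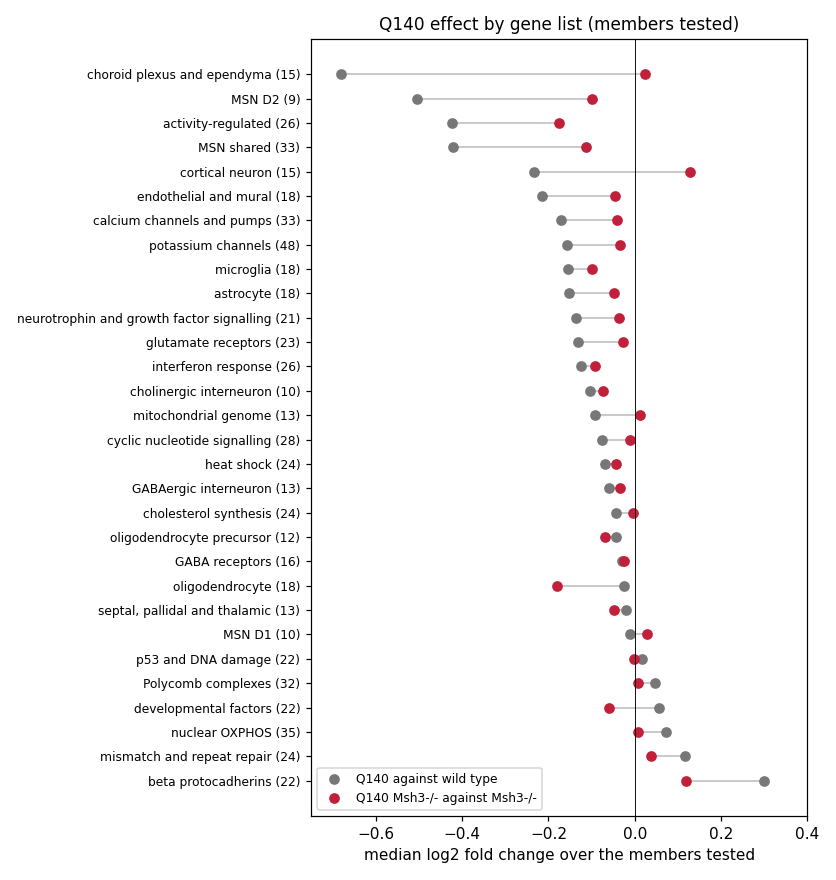
Median log2 fold change (x axis) over the tested members of each gene list (y axis, number tested in brackets, MSN for medium spiny neuron, the blood list not drawn), in Q140 against wild type (grey) and on the Msh3-/- background (red). The shared medium spiny neuron markers stand at -0.42 and -0.11, and the oligodendrocyte list at -0.03 and -0.18.

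Markers of other cell types were read the same way. All 18 oligodendrocyte markers lay below 0, 8 with an unadjusted p under 0.05 (3.43% of all genes were lower at that p) and none past the threshold, with a median of -0.18 against -0.03 in Q140 against wild type. Mal, which encodes a proteolipid of compact myelin, ran from 228.1 to 308.2 CPM in Msh3-/- and from 205.3 to 244.8 CPM in Q140 Msh3-/-, where 5 of 8 libraries lay below the Msh3-/- range (log2 fold change -0.21 ± 0.073, adjusted p 0.53). The summed level of the 18 genes ran from 6249 to 8598 CPM and from 5689 to 7099 CPM. All 18 microglial markers also lay below 0, with 1 at an unadjusted p under 0.05 and a median of -0.10. Of 18 astrocyte markers 17 lay below 0 with a median of -0.05, and 11 of 12 oligodendrocyte precursor markers did with a median of -0.07. Medians were -0.05 for 18 endothelial and mural genes, -0.07 for 10 cholinergic and -0.03 for 13 GABAergic interneuron genes, 0.13 for 15 cortical, -0.05 for 13 septal, pallidal and thalamic, and 0.02 for 15 choroid plexus and ependymal genes. The 5 blood genes tested stood at a median of 0.38, with summed levels from 0.183 to 15.5 CPM and from 0.338 to 16.4 CPM. The part of these cell types in the neuronal values was not tested.

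The effect was also read by sex. No gene passed the test of a difference between males and females: 0 in edgeR, with 1499 genes at an unadjusted p under 0.05 and a smallest adjusted p of 0.369, and 0 in DESeq2, with 1541. All 15 called genes had the same sign in both sexes. They were called over both sexes of these libraries together, so this agreement is no separate test. For Gm2420 the female value rests on F2 (0.744 CPM). Lrrn3 stood at 0.33 in females and 0.33 in males, Penk at -0.49 and -0.34, Ankrd35 at -0.50 and -0.27, and Ddit4l at -0.79 and -0.44.

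Just inside the threshold stood Tmc3, with an adjusted p of 0.0455. Just outside it stood N4bp3 (log2 fold change -0.28, adjusted p 0.0539), Pcdhga2 (0.29, adjusted p 0.0554) and Hdac11 (-0.15, adjusted p 0.0715), with Ppp1r1b further out at 0.138. Leaving out 1 library moved the count of called genes from 15 to between 5 (without male M2 of Msh3-/-) and 17. It was 9 without Q140 Msh3-/- F1, 7 without F3, 8 without Msh3-/- F2 and 7 without Msh3-/- M4. Without Q140 Msh3-/- M4 it was 12, of which 10 were among the 15. Lrrn3, Ankrd35, Ildr2, Htr2c and Penk passed in all 16 such fits, and Vill and Gm2420 in 15. The others passed in fewer: Kcng1 in 11, Lrrtm4 in 9, Papss2 in 5, Bcl11a in 4, Pde1b, Ddit4l and C130071C03Rik in 3, and Tmc3 in 2. Only 1 of 8 plate rows held libraries of both groups, so that within these 16 libraries plate row and genotype nearly cannot be told apart. The fit with row as a covariate used all 48 libraries, whose other groups share these rows. In it 2 genes passed, Lrrn3 and Ankrd35.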

How the data were processed

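Striatal RNA from 48 libraries was sequenced by the authors, and 16 of them (8 Q140 Msh3-/-, 8 Msh3-/-) carry the main comparison. The submitters' processing notes name STAR 2.7.5c, SAMtools 1.10, HTSeq 0.12.3 and GRCm38 (mm10). The annotation, the strand setting and the gene lengths are not given in the sources used here. The deposited values were whole read counts per gene for 48795 genes, used for every main result, and the authors' FPKM values, used only as an alternative. Groups came from the labelled genotypes.

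Genes passing edgeR's expression filter (minimum count 10, minimum total 15) numbered 19975, and the 28820 left out held 0.0383% of counts. edgeR 4.0.16 in R 4.3.3 (TMM scaling, quasi-likelihood fit with robust estimation, two-sided) was fitted to all 48 libraries, which share an estimate of the spread, with sex as covariate. P-values were adjusted by Benjamini-Hochberg across every tested gene, and 0.05 was the threshold. CPM values are TMM-scaled. Confidence intervals of 95% are per gene. The scripts were tested on simulated data. Coordinates are GENCODE M21, matched by gene ID for 19893 genes, and upstream windows are RefSeq on GRCm38.p6. Depth was 33673410 to 52631234 counts per library in the 16 libraries, the biological coefficient of variation was 10.3%, and no 2 libraries agreed within sampling noise (lowest chi-square per degree of freedom 6.31). In 0 libraries did sex-linked genes go against the labelled sex.

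Named genes were Msh3 and Htt, up to 12 rises and 12 falls past the threshold, the 8 smallest p, up to 4 called or 2 lowest-p members of each of 31 gene lists, the 6 steepest differences between backgrounds in each direction and the 6 steepest changes of Q140 against wild type in each direction. Clone names, and genes whose log2 CPM averaged below 0, were passed over, and a few genes that the rule names are not reported here. The comparison, lists and rule were chosen with earlier results of these data known. Alternatives were other scalings, filters, covariates and tools (DESeq2 1.42.0, limma 3.58.1), and leaving out each library.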

Additional observations from a re-analysis of the deposited data

Results flagged for a closer look

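In 4 cases, all in the Q140 Msh3-/- group, a sample lay far from the others by Dixon's criterion, of 62 groups of 8 tested, and chance alone marks about 1 in 20. Bcl11a was lowest in female F2 of the Q140 Msh3-/- group at 80.6 CPM, where the other 7 lay above every Msh3-/- library. Female F4 of that group had the highest mean level of the cholinergic interneuron list, 3.97 log2 CPM, and of the septal, pallidal and thalamic list, 3.46 log2 CPM. Male M4 of that group had the lowest mean level of the GABAergic interneuron list, 3.09 log2 CPM.

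The other results marked are genes whose Q140 effect differed between the Msh3-/- background and the background without an Msh3 mutation, by the test of the difference in edgeR (adjusted p under 0.05 over all genes). The difference was positive, on the log2 scale, for Ddit4l at 1.03, Penk at 0.606, Ankrd35 at 0.672 and Pde1b at 0.309, which were also called on the Msh3-/- background. It was positive for Drd1 at 0.442, Chrm4 at 0.417, Kcnab1 at 0.308, the calcium channel subunit Cacna2d3 at 0.26 and the neurotrophin receptor Ntrk3 at 0.241. It was also positive for Mafa at 1.83, Aoah at 1.53, Dgat2l6 at 1.44, Wnt8b at 1.31, Fgf3 at 1.27 and Gpx6 at 1.16, all of low level. It was negative for Sfmbt2 at -1.16, Fam196b at -0.9, Cbx8 at -0.71, Tnnt2 at -0.694, Nrip2 at -0.671 and Efcab7 at -0.643.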

How the results depend on the processing

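The count of 15 called genes became 29 with DESeq2, 23 when only the 2 groups compared were fitted, 9 without the count filter, 9 without the sex covariate, 8 with plate column and 2 with plate row as covariate. It became 1 over the 8 libraries of the 3 sample code stems found in both groups, with stem as covariate. Without Q140 Msh3-/- F1, F3 and F4 together it was 5 and the count of differences below 599. This subset was chosen after seeing the data and leaves F2 as the only female of that group. Leaving out a library gave 5 to 17: 9 without Q140 Msh3-/- F1, 7 without F3, 8 without Msh3-/- F2, 5 without M2 and 7 without M4. The signs of the 15 genes held in every fit that tested them. The 478 differences from the background without an Msh3 mutation became 1029 with library totals, 763 with DESeq2, 280 without the filter, 64 with plate row, and 1145 or 1190 with limma on log2(FPKM + 0.1) or log2(FPKM + 1). Leaving out a library gave 262 (without Q140 F1) to 935 (without Q140 M4), with 276 without Q140 M1, 286 without Q140 Msh3-/- F2 and 302 without wild-type M4. With library totals, genes called in Q140 against wild type went from 3969 to 6180 (5076 higher, 1104 lower). The counts of 0, for the Msh3+/- background and for sex, stayed at 0 in the 5 other fits run for each. The causes were not tested.

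Same-numbered libraries of the 2 groups correlated between -0.244 and 0.125, with 1 of 8 pairs over 0.1 and 1 best with its own number, so the numbers do not pair them. With the replicate block 15 and 475 genes were called, and the block changed no count by over 1.5 times. Signs turned only in values that had missed the threshold. In the code stem subset they turned for Tek (0.0111), Lamp5 (-0.00575), Ccl28 (-0.194) and Cbx8 (0.0164). With code stem as a random block they turned for Hbb-bs (-0.0784), Fam196b (0.00906) and the Lrrtm4 difference (-0.000485), and with plate row for Fam196b (0.195) and Nrip2 (0.0763). Library totals turned Cbx8 (0.00196) and the differences of Lrrtm4 (-0.0561) and Papss2 (-0.0121). On log2(FPKM + 0.1) these were 0.00139, -0.0548 and -0.0105, and on log2(FPKM + 1) they were 0.00145, -0.0489 and -0.0103. Plate column turned the Lrrtm4 difference (-0.026). Without Q140 Msh3-/- F1, F3 and F4 signs turned for Hbb-bs (-0.388), Hba-a2 (-0.516), Mafa (0.094) and the Lrrtm4 difference (-0.00167). Leaving out each library gave Hba-a2 from -0.215 to 0.912, Fam196b from -0.079 to 0.041, Cbx8 from -0.046 to 0.0214 and the Lrrtm4 difference from -0.0225 to 0.0331.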

Other observations

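On chromosome 5, 3 genes near Htt split the Q140 Msh3-/- libraries in the same way. Besides Gm2420, described above, they were Abhd1, a hydrolase gene 3.81 Mb from Htt, and Dpysl5, a gene of the collapsin response mediator family 3.96 Mb from it. Abhd1 stood at 4.02, 3.57 and 4.04 CPM in females F1, F3 and F4 and between 5.84 and 7.23 CPM in the other 5 libraries. The 8 Msh3-/- libraries ran from 3.42 to 4.66 CPM, so those 3 libraries lay within that range. Dpysl5 stood at 48.4, 47.9 and 44.1 CPM in the same 3 libraries and between 57.2 and 63.6 CPM in the other 5, against 42.8 to 47.9 CPM in Msh3-/-. Library M2 of the Q140 Msh3+/- group was low as well, with 0.0616 CPM for Gm2420, 3.63 CPM for Abhd1 and 48.6 CPM for Dpysl5. Whether this bears on the labels of the 4 libraries was not tested, and the labels were kept. In the summary by library above, genes that fell past 2-fold stood at -0.43, -0.73 and -0.40 in F1, F3 and F4. They stood between -0.30 and -0.0004 in the other 5 Q140 Msh3-/- libraries. Over all genes that fell, F1, F3 and F4 stood at -0.077, -0.082 and -0.030, and M4 was lowest at -0.095. Genes that rose past 2-fold stood at 0.41, 0.34 and 0.27 in those 3 libraries and between -0.05 and 0.39 in the other 5. In Q140 libraries without an Msh3 mutation Abhd1 ran from 5.73 to 8.20 CPM and Dpysl5 from 54.2 to 61.7 CPM. Neither gene passed on the Msh3-/- background (Abhd1 0.49 ± 0.13, adjusted p 0.177, and Dpysl5 0.26 ± 0.064, adjusted p 0.138 in edgeR), but both did, with Atraid, when F1, F3 and F4 were left out. These genes were picked after their values were seen.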
